A study of Mus musculus with 116 samples.

Results

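The proteasome genes of the mouse were followed through the oocyte, the zygote, the 2-cell embryo and the inner cell mass (ICM). Members were all symbols made of Psm, 1 of the letters a to e or g, and a number, with an optional ending ip1. This naming rule used no measured value. It found 47 genes among the 24028 symbols that all 4 deposited tables share. They were 8 alpha subunits (Psma), 11 beta subunits (Psmb), 6 ATPases (Psmc), 14 lid and base genes (Psmd), 4 activators (Psme) and 4 assembly chaperones (Psmg).

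The proteasome is the main protease that destroys ubiquitin-tagged proteins in the cytoplasm and nucleus. Alpha subunits form the outer rings of its barrel-shaped core particle and gate the entrance. Beta subunits form the inner rings, of which Psmb5, Psmb6 and Psmb7 carry the proteolytic sites. In the regulatory particle that caps the core, the ATPases unfold substrates, and lid and base subunits capture ubiquitin chains and remove them. Activators of the Psme family cap the same core without an ATPase ring, and chaperones of the Psmg family help to build the alpha ring. In the mouse, the oocyte supplies the first embryo with RNA and protein, much of it removed as the embryonic genome is activated around the 2-cell stage.

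All animals were wild-type. Embryos came from C57BL/6N females mated with PWK males, and 8-week-old females had received the hormones PMSG and hCG. Total RNA from about 100 oocytes or embryos, depleted of ribosomal RNA, gave 1 library each of MII oocytes (13 h after hCG), PN5 zygotes (late pronuclear stage, 30 h), early 2-cell embryos (36 h), mTBE late 2-cell embryos and control late 2-cell embryos. For the mTBE group, zygotes taken 23 h after hCG spent 14 h in 60 uM DRB, which blocks elongation by RNA polymerase II. They were then released and cultured for 12 h, while control zygotes spent the same times with 0.1% DMSO. The ICM (98 h) gave 2 libraries by Smart-seq2, a method that selects polyadenylated RNA. The labels do not expand mTBE. Nothing in them says whether the ICM libraries came from separate collections.

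Values are the authors' FPKM, fragments scaled by transcript length and library total. PN5, mTBE and control share 1 table and both ICM libraries share another, whereas MII and early 2-cell each have their own. Whether the tables were made and normalized in the same way is not given in the sources used here, and this touches each level set across them. A difference is on the log2(FPKM + 1) scale, which understates the change of low genes. A gene was compared if either group reached 1 FPKM, and was called higher or lower at a difference of 1 or more, about 2-fold. With 1 library a group there is no replicate check and no test. FPKM measures a share of the library, so fewer cells of a type and less RNA per cell cannot be told apart.

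Promoters were read for the 2 genes with the highest core levels in the ICM, for the catalytic gene Psmb5 and for the activators Psme3 and Psme4, because these genes show the contrasts described next. Each sequence is the 250 bases before the RefSeq start on GRCm38.p6, 5′ to 3′ on the gene's strand. Capitals mark the motifs searched on both strands.
Psma2 (chr13:14612992-14613241, plus strand): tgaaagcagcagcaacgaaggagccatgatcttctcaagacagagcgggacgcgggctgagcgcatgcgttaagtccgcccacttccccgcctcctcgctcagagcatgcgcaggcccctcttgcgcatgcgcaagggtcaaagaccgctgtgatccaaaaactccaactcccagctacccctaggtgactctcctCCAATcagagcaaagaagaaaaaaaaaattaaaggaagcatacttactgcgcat
Psma7 (chr2:180042465-180042714, minus strand): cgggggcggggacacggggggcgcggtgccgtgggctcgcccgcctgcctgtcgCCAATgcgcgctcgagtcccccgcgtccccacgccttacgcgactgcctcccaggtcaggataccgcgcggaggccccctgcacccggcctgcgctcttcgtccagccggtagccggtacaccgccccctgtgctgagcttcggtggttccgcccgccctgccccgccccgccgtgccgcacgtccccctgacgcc
Psmb5 (chr14:54617996-54618245, minus strand): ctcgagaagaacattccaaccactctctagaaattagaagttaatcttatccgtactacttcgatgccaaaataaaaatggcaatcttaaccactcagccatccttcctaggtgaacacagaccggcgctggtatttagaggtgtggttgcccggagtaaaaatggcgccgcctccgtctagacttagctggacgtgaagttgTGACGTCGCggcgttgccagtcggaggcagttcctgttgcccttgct
Psme3 (chr11:101315963-101316212, plus strand): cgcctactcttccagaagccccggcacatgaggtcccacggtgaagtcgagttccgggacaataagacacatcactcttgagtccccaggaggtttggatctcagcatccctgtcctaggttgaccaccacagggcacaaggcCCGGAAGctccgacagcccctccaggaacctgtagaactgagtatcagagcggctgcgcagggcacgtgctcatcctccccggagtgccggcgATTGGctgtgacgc
Psme4 (chr11:30771525-30771774, plus strand): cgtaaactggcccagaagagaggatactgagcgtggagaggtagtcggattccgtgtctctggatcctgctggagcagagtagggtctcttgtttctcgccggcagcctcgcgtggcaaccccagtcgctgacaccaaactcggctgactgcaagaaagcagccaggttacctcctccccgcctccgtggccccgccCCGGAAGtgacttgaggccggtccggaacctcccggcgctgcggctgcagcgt
The capitals are TGACNNNGC in Psmb5, CCGGAAG in Psme3 and Psme4, and the CCAAT box in Psma2, Psma7 and, on the other strand, Psme3. RefSeq promoters matched 39 of the 47 genes, in 42 windows. CCGGAAG, the core bound by the ETS factor GABPA, was in 13 windows of 12 genes or 30.95%, against 6.907% of all 32851 windows. CCAAT was in 33.33% of the members' windows, against 33.85% of all windows. TGACNNNGC, the core of the antioxidant response element, was in 11.9%, against 10.16%. The palindrome bound by nuclear respiratory factor was in the Psma2 window alone, not marked here, or 2.381% of the members' windows, against 0.7823% of all windows. TATAAA was in 9.524%, against 12.37%. Over the 21263 windows of protein-coding genes, CCGGAAG was in 8.983%, CCAAT in 35.37% and TGACNNNGC in 10.44%. There the palindrome was in 1.072% and TATAAA in 11.63%. No marked motif overlaps another in the 5 sequences. A match is a description of letters.

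MII oocytes held most of the complex as RNA. Of the 47 genes, 39 were at 1 FPKM or more and 36 at 10 FPKM or more. Their median percentile among all genes was 91.6. The lid and base gene Psmd4, a ubiquitin receptor, was the highest at 163 FPKM. Psme3, a nuclear activator that can open the core without ubiquitin, had 137 FPKM. Psma2 had 107 FPKM and Psma7 102 FPKM, both alpha ring subunits. The core genes Psma1 to Psma7 and Psmb1 to Psmb7 lay within 5.65-fold for the alpha genes and 4.75-fold for the beta genes. The 6 ATPases, whose proteins form 1 ring, lay within 2.87-fold. Outside this set, Psmb8 and Psmb9 of the immunoproteasome and Psme1 were listed at 0 in MII oocytes. Psmd13, a lid subunit, had 0.895 FPKM, and Psmg2, which pairs with Psmg1 in alpha ring assembly, had 0.0468 FPKM. The testis-type alpha subunit Psma8 reached 0.102 FPKM in MII and no more than 0.580 FPKM in any library.

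**Figure D1:**
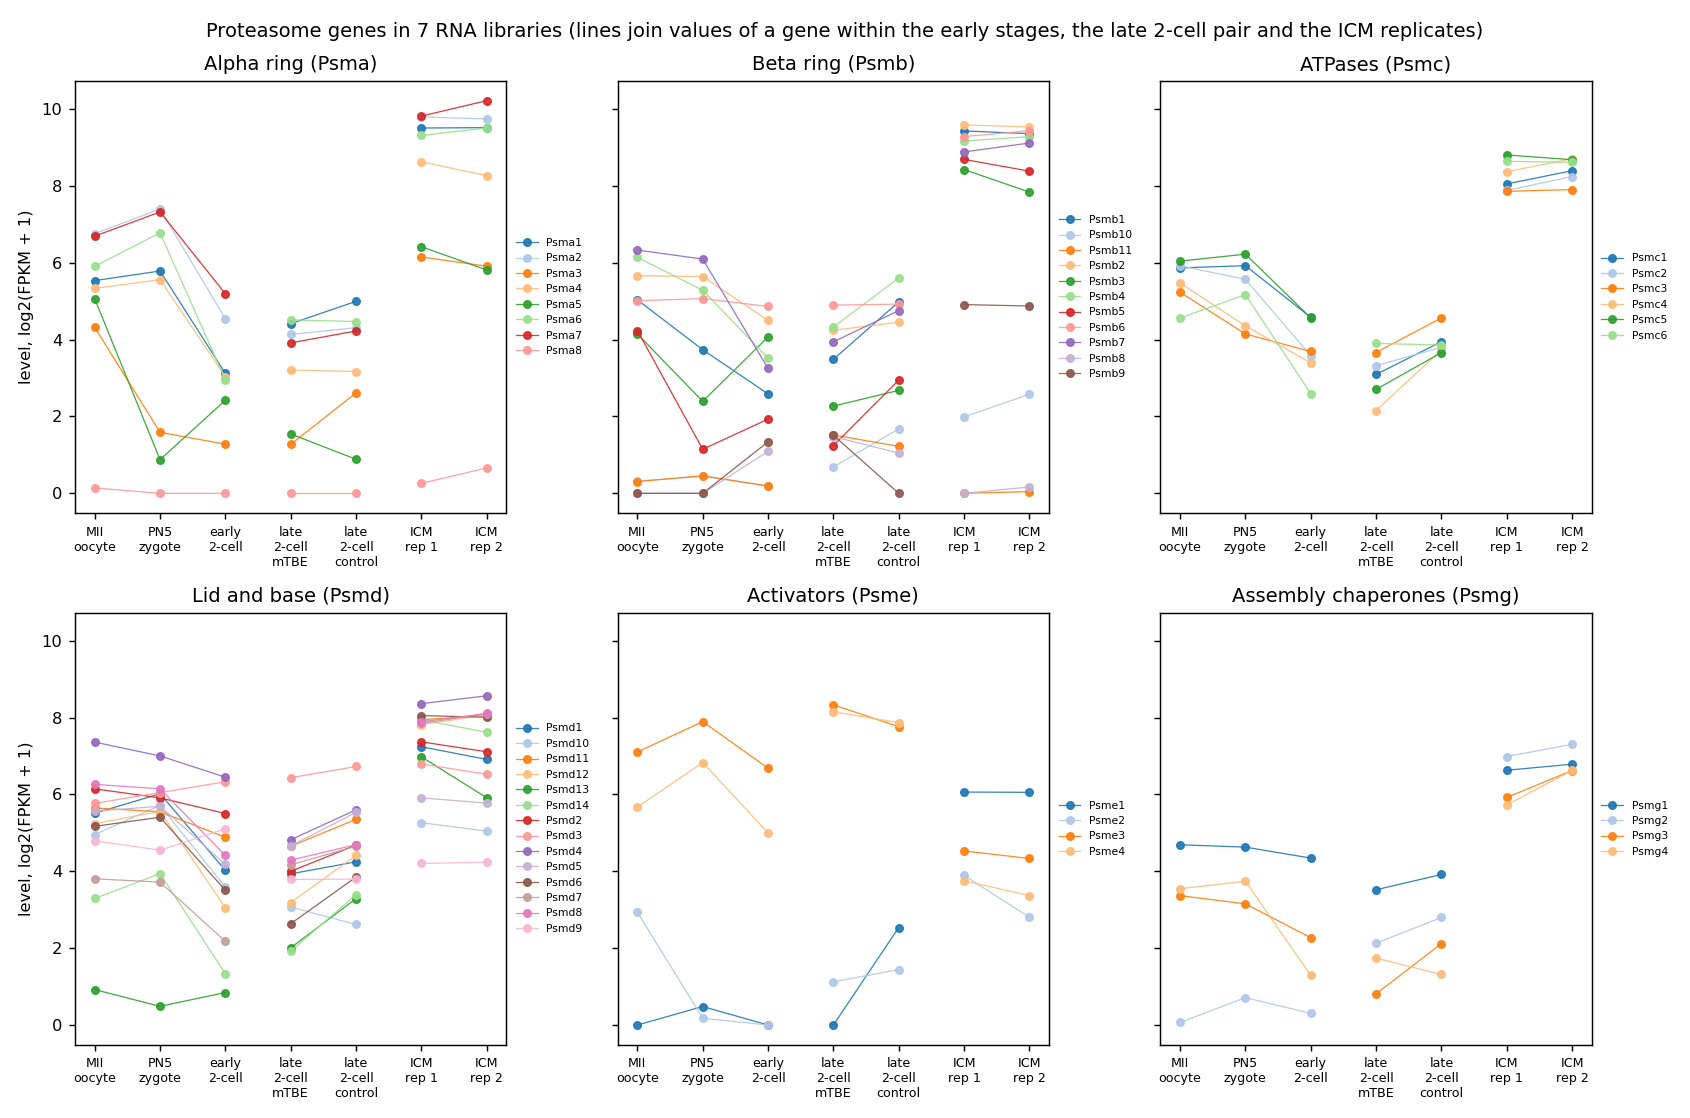
Level of each gene as log2(FPKM + 1) in the 7 libraries, with 1 panel per class and stages in order of time. Each point is 1 library, and lines join values of a gene among MII, PN5 and early 2-cell, between the late 2-cell libraries and between the ICM replicates. Most core genes are highest in the ICM, where Psme3 and Psme4 are lowest.

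Examples from the cap show how its parts ran across the 7 libraries. Psmc5, the ATPase with the highest mean, had 64.9 FPKM in MII, 73.7 in PN5, 22.7 in early 2-cell, 5.52 in mTBE and 11.6 in control embryos, and 446 and 409.5 FPKM in the ICM replicates. Psmc3, the ATPase with the lowest mean, had 36.6 FPKM in MII, 16.7 in PN5, 11.9 in early 2-cell, 11.7 in mTBE and 22.6 in control embryos, and 231 and 239 FPKM in the ICM replicates. Psmd4 had 163 FPKM in MII, 127 in PN5, 86.3 in early 2-cell, 27.2 in mTBE and 47.5 in control embryos, and 328 and 378 FPKM in the ICM replicates. All of them were lowest in the mTBE library, as were 17 of the 34 core, ATPase, lid and base genes among the 5 total RNA libraries. Another 12 were lowest in early 2-cell, 3 in PN5, 1 in MII and 1 in control embryos. These counts were not made over all genes, so they have no background. They rank deposited values across separate tables, and the FPKM of all genes summed to 212639 in early 2-cell and 358284 in mTBE embryos. Psmb2, the beta subunit with the highest mean, had 49.6 FPKM in MII, 48.9 in PN5, 21.6 in early 2-cell, 18.0 in mTBE and 20.9 in control embryos, and 768 and 741 FPKM in the ICM replicates. Summed over the 47 genes the level was 1877 FPKM in MII, 2059 in PN5, 780.5 in early 2-cell, 1124 in mTBE and 1241 in control embryos, and 12396 and 12851 FPKM in the ICM replicates. The 4 activators held 10.3% of that sum in MII, 17.0% in PN5, 17.0% in early 2-cell, 53.8% in mTBE and 36.7% in control embryos, and 0.922% and 0.778% in the ICM replicates.

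In PN5 zygotes the members' median stayed near its MII level, but the share called lower exceeded that of all genes. By the size rule 8 of 39 measured members were lower, where 9.23% of all genes were, and 1 was higher, where 8.77% of all genes were. The members' median difference was -0.02, and that of all genes was 0.24. Of the 39, 20 lay below 0, where 36.0% of all genes did. The 7 measured beta genes had a median of -0.85, with 3 lower and 6 below 0. The alpha genes had a median of 0.25 with 2 of 7 lower, and the ATPases -0.15 with 2 of 6 lower. The lid and base genes had a median of 0.13 with 0 of 13 lower. Psma5 had 0.835 FPKM in PN5 zygotes, against 32.4 FPKM in MII oocytes. Psmb5, which carries the chymotrypsin-like site, had 1.21 FPKM in PN5 zygotes, against 17.8 FPKM in MII oocytes. Psma3 had 2.00 FPKM in PN5 zygotes, against 19.0 FPKM in MII oocytes. These 3 were over 4-fold lower, of 36 members at 10 FPKM or more in MII. Among all genes at that level it was 288 of 5295, or 5.44%. The other members called lower were Psmb1 and Psmb3 of the beta ring, the ATPases Psmc3 and Psmc4, and the activator Psme2, with differences of -1.30, -1.75, -1.09, -1.11 and -2.76. Psma2 and Psma7 stood at 168 and 159 FPKM in PN5 zygotes, against 107 and 102 FPKM in MII oocytes, differences of 0.64 and 0.63. The spread within the alpha ring was 201-fold in PN5, and within the beta ring 55.5-fold. The ATPases stayed within 4.41-fold. Psma5 and Psmb5 each have a named pseudogene in RefSeq, so reads may be shared with a near copy. Psma3 has 0 named pseudogenes. Psmb6 and Psmb7, with 2 each, differed by 0.05 and -0.23. The part of shared reads in these differences was not tested. Psma5 and Psmb3 had 4.36 and 15.8 FPKM in early 2-cell embryos, above their PN5 levels, as was Psmb5. In the mTBE and control libraries, which share the PN5 table, Psma5 had 1.92 and 0.848 FPKM and Psmb3 3.82 and 5.40 FPKM. Psma3, Psmb1, Psmc3, Psmc4 and Psme2 were lower in early 2-cell embryos than in PN5. Stage and table cannot be told apart here.

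Psme4, the large activator known in mouse testis for the removal of acetylated histones, was the gene called higher in PN5. It had 113 FPKM in PN5 zygotes, against 49.9 FPKM in MII oocytes, a difference of 1.16. Genes at 5 FPKM or more in both libraries shifted by a median of 0.33. Once that shift was taken out the difference was 0.83 and the call was lost. With the shift out, 9 members were lower and 0 higher in PN5, where 12.2% and 3.22% of all genes were. Then 30 of 39 members lay below 0, where 52.4% of all genes did. The beta genes had a median of -1.17 there, with 4 of 7 lower.

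Levels of most members were lower in the early 2-cell library. Set against MII oocytes, 29 of 41 measured members were lower, where 28.8% of all genes were. The members' median difference was -1.54, and that of all genes was -0.58. As deposited, all 7 measured alpha genes and all 6 ATPases were lower. The count was 5 of 9 beta genes, 8 of 13 lid and base genes, 1 of 3 activators and 2 of 3 chaperones. Psmb7, the trypsin-like catalytic subunit, had 8.52 FPKM in early 2-cell embryos, against 79.4 FPKM in MII oocytes, a difference of -3.08. Psma3 had 1.43 FPKM in early 2-cell embryos, against 19.0 FPKM in MII oocytes, a difference of -3.04. Psma6, also of the alpha ring, had 6.74 FPKM in early 2-cell embryos, against 59.0 FPKM in MII oocytes, a difference of -2.95. Taking out the shift of -0.57 left 21 members lower and 3 higher, where 15.0% and 8.56% of all genes were, with a median of -1.01. By class that left 6 of 7 alpha genes, 4 of 6 ATPases, 4 of 9 beta genes, 5 of 13 lid and base genes, 1 of 3 activators and 1 of 3 chaperones lower.

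Some members did not take part in this dip. Psmd3, a structural lid subunit, had 79.4 FPKM in early 2-cell embryos, against 53.5 FPKM in MII oocytes. Psmd9, a chaperone of the ATPase ring, had 33.4 FPKM in early 2-cell embryos, against 26.7 FPKM in MII oocytes. The caspase-like catalytic gene Psmb6 had 28.1 FPKM in early 2-cell embryos, against 31.3 FPKM in MII oocytes, a difference of -0.15. The beta ring gene Psmb3 had 15.8 FPKM in early 2-cell embryos, against 16.7 FPKM in MII oocytes. In PN5, mTBE and control embryos, which share 1 table, Psmb3 had 4.25, 3.82 and 5.40 FPKM. Psme3 had 102 FPKM in early 2-cell embryos, against 137 FPKM in MII oocytes, a difference of -0.42 as deposited and 0.14 with the shift taken out. The 2 members called higher were Psmb8 and Psmb9, at 1.13 and 1.53 FPKM in early 2-cell embryos and listed at 0 in MII oocytes. Being at 0 in MII, both were bound to be called once compared. Among all genes 3.98% were called higher.

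**Figure D2:**
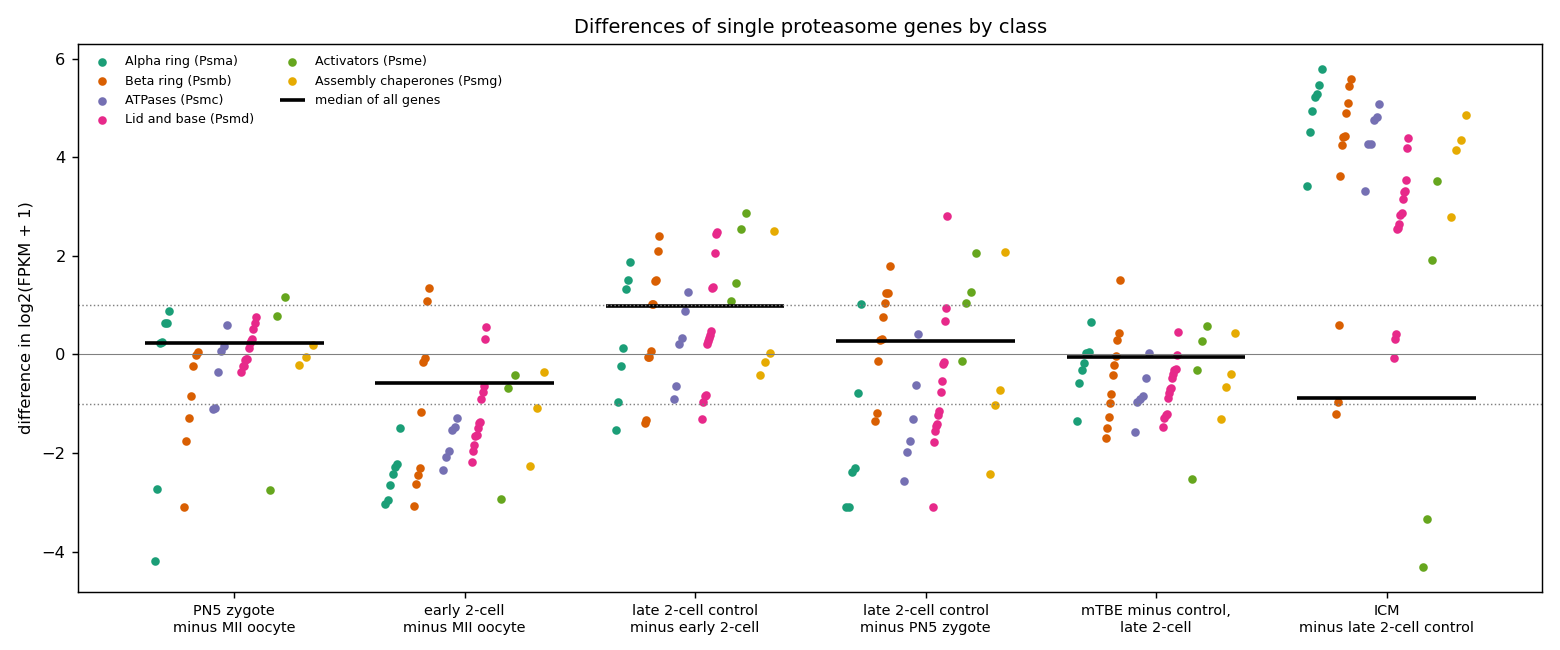
Difference in log2(FPKM + 1) of each measured gene in 6 comparisons, coloured by class, with the median of all genes as a black line. In early 2-cell against MII most points lie below that line, and in ICM against control most lie above it with the activators Psme3 and Psme4 at the bottom.

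Control late 2-cell embryos were set against PN5 zygotes within 1 table, although stage, DMSO and culture cannot be told apart. There 19 of 44 measured members were lower, where 17.0% of all genes were, and 10 were higher, where 30.5% of all genes were. The members' median was -0.67, and that of all genes was 0.28. The alpha genes had a median of -2.35 with 4 of 6 lower. The ATPases had a median of -1.54 with 4 of 6 lower, and the lid and base genes a median of -0.95 with 7 of 14 lower. The beta genes had a median of 0.54, with 2 of 10 lower and 4 higher. Of the 4 activators 3 were higher and none was lower. Taking out the shift of -0.13 gave 18 lower and 11 higher, where 15.0% and 33.2% of all genes were.

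Psma7 had 17.7 FPKM in control late 2-cell embryos, against 159 FPKM in PN5 zygotes, a difference of -3.10. Psma2 had 18.8 FPKM in control embryos, against 168 FPKM in PN5 zygotes, a difference of -3.09. Psmd10, a chaperone of the ATPase ring also called gankyrin, had 5.13 FPKM in control embryos, against 51.6 FPKM in PN5 zygotes, a difference of -3.10. The beta ring was mixed. Psmb2 and Psmb7 were lower, with differences of -1.19 and -1.34, and Psmb6 differed by -0.14. Psmb1 had 30.6 FPKM in control embryos, against 12.3 FPKM in PN5 zygotes, a difference of 1.24. Psmb5 had 6.70 FPKM in control embryos, against 1.21 FPKM in PN5 zygotes, a difference of 1.80. The other beta genes called higher were Psmb8 and Psmb10, at 1.07 and 2.20 FPKM in control embryos, against 0 and 0.355 FPKM in PN5 zygotes. With 0 in PN5, Psmb8 was bound to be called once compared. Psme4 had 233 FPKM in control embryos, against 113 FPKM in PN5 zygotes, a difference of 1.04.

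Against early 2-cell embryos, which have a table of their own, 20 of 46 members were higher in the control late 2-cell library, where 49.6% of all genes were, and 4 were lower, where 8.62% were. That share of higher members is near the background. Taking out the shift of 0.60 gave 11 higher and 10 lower, where 33.2% and 13.8% of all genes were. Psme4 had 233 FPKM in control embryos, against 31.0 FPKM in early 2-cell embryos, a difference of 2.87. Psmd7, the lid partner of the deubiquitinase, had 24.2 FPKM in control embryos, against 3.52 FPKM in early 2-cell embryos, a difference of 2.48. Psmb1 differed by 2.39. Psmb3 had 5.40 FPKM in control embryos, against 15.8 FPKM in early 2-cell embryos, a difference of -1.39, and Psmd9 differed by -1.31. Psma2 and Psma7 stayed low, at 18.8 and 17.7 FPKM in control embryos, against 22.3 and 35.6 FPKM in early 2-cell embryos.

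The DRB comparison asks how levels stood after a temporary block of transcription elongation. In mTBE embryos 11 of 46 members were lower than in control embryos, where 9.99% of all genes were, and 1 was higher, where 5.57% were. The members' median was -0.48, and that of all genes was -0.05. Of the 46, 35 lay below 0, where 53.4% of all genes did. Taking out the median shift left 11 lower and 1 higher, where 8.57% and 6.61% of all genes were. The genes called lower were Psma3, Psmb1, Psmb4, Psmb5, Psmc4, Psmd6, Psmd12, Psmd13, Psmd14, Psme1 and Psmg3. Psme1 was listed at 0 in mTBE embryos, and Psmb9, the gene called higher, at 0 in control embryos. Both were bound to be called once compared. Some markers of other cells differed in this comparison and others did not. The granulosa marker Amhr2 had 2.12 FPKM in mTBE embryos, against 16.7 FPKM in control embryos. Has2 of the same list had 1.18 FPKM in mTBE embryos, against 1.15 FPKM in control embryos. The 5 cumulus and granulosa markers summed to 8.09 FPKM in mTBE embryos, with 2 at 0, against 23.6 FPKM in control embryos, with 1 at 0. The 5 immune markers summed to 9.01 FPKM in mTBE embryos, with 2 at 0, against 18.7 FPKM in control embryos, with 1 at 0. Among these, Cd74 had 4.86 FPKM in mTBE embryos, against 12.6 FPKM in control embryos, and Lyz2 was listed at 0 in mTBE embryos, against 2.99 FPKM in control embryos. H2-Aa went the other way, with 2.44 FPKM in mTBE embryos, against 1.32 FPKM in control embryos. Cd52 had 1.71 FPKM in mTBE embryos, against 1.78 FPKM in control embryos. The 5 oocyte markers summed to 1738 FPKM in mTBE embryos, against 1123 FPKM in control embryos, with 0 called higher or lower. Bmp15 made this sum larger, with 1466 FPKM in mTBE embryos, against 766 FPKM in control embryos. Gdf9 had 184 FPKM in mTBE embryos, against 266 FPKM in control embryos. Zp3 and Mos were also lower, Nlrp5 had 61.6 against 61.3 FPKM, and the median difference of the list was -0.15. The 5 markers of the 2-cell stage summed to 124 FPKM in mTBE embryos, against 233 FPKM in control embryos. Their part in the result was not tested.

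Psmc4, an ATPase, had 3.45 FPKM in mTBE embryos, against 12.3 FPKM in control embryos, a difference of -1.58. Psmb1 had 10.2 FPKM in mTBE embryos, against 30.6 FPKM in control embryos, a difference of -1.50. Psmb4, also of the beta ring, had 19.0 FPKM in mTBE embryos, against 47.6 FPKM in control embryos, a difference of -1.28. These were the largest decreases among members at 10 FPKM or more. Psmb5 had 1.36 FPKM in mTBE embryos, against 6.70 FPKM in control embryos, a difference of -1.70. Psmd14, the deubiquitinase of the lid, had 2.78 FPKM in mTBE embryos, against 9.52 FPKM in control embryos, a difference of -1.47. The comparison of control with early 2-cell embryos shares the control library, and there Psmb1, Psmb4 and Psmb5 differed by 2.39, 2.09 and 1.02, the last 0.51 with the shift taken out. Psma2 had 16.6 FPKM in mTBE embryos, against 18.8 FPKM in control embryos, and Psma7 had 14.1 FPKM in mTBE embryos, against 17.7 FPKM in control embryos. Their differences of -0.18 and -0.31 did not reach the size rule.

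The classes differed in their median values. The ATPases had a median of -0.88, the lid and base genes -0.69, the chaperones -0.53, the beta genes -0.41, the alpha genes -0.18 and the activators -0.02. All genes with a mean level of 5 to 20 FPKM had a median of -0.22 with 13.7% lower, and the 19 members there had a median of -0.48 with 5 lower. Between 20 and 100 FPKM the median was -0.09 for all genes and -0.64 for 12 members, of which 2 were lower, where 11.0% of all genes there were. From 100 FPKM up the 572 genes had a median of 0.20. The 2 members there were Psme3, with 321 FPKM in mTBE embryos, against 216 FPKM in control embryos, and Psme4, with 283 FPKM in mTBE embryos, against 233 FPKM in control embryos. Their differences of 0.57 and 0.28 did not reach the size rule.

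**Figure D3:**
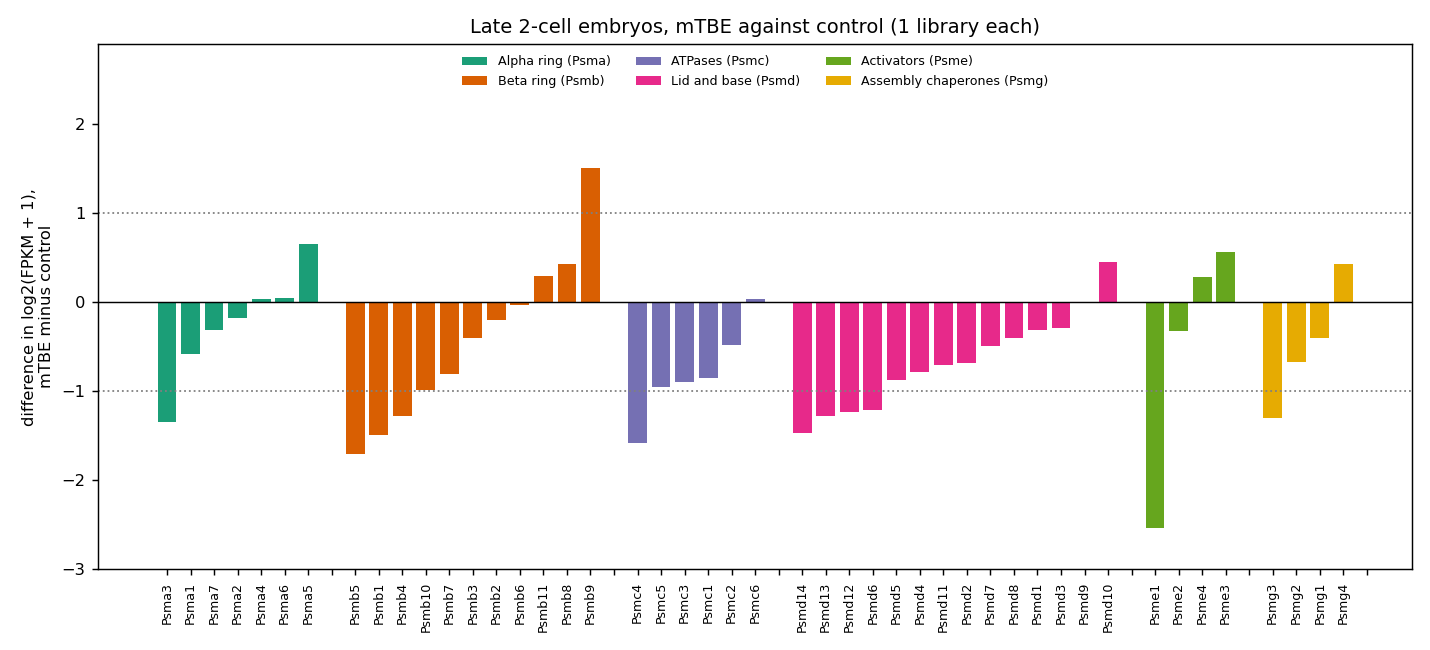
Difference in log2(FPKM + 1), mTBE minus control late 2-cell embryos, for each measured gene, grouped by class, with 1 library per group. Bars below 0 are lower in mTBE embryos; 11 genes reach -1 and Psmb9 alone exceeds 1.

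The ICM had the highest level of most members. There 38 of 46 were higher than in control late 2-cell embryos, where 25.0% of all genes were, and 3 were lower, where 47.8% of all genes were. The members' median was 3.89, and that of all genes was -0.88. Taking out the shift of 0.26 left 38 higher and 3 lower, where 22.2% and 50.3% of all genes were. Among members with 20 FPKM or more in the control, 14 of 18 were higher, against 13.5% of 3679 genes at that level. All 7 measured alpha genes, all 6 ATPases and all 4 chaperones were higher, with 8 of 11 beta genes and 11 of 14 lid and base genes. Psma7 had 899.9 and 1189 FPKM in the ICM replicates, against 17.7 FPKM in control embryos, a difference of 5.79. Psmb5 had 412 and 333 FPKM in the ICM replicates, against 6.70 FPKM in control embryos, a difference of 5.59. Psma2 had 888 and 854 FPKM in the ICM replicates, against 18.8 FPKM in control embryos, a difference of 5.46. These were the largest increases among members at 10 FPKM or more. In 39 members both ICM replicates exceeded every total RNA library, Psma8 among them at under 1 FPKM. This was not counted over all genes, so the 39 have no background to be read against. The summed FPKM of all genes was also larger in the ICM replicates, at 445521 and 474686. The largest such sum among the total RNA libraries was 358284, in mTBE.

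The core spread was small in the ICM for the beta ring, at 2.24-fold and 3.25-fold in replicates 1 and 2. For the alpha ring it was 12.9-fold and 21.5-fold, wider than the 5.65-fold in MII oocytes. The ATPases spread 1.93-fold and 1.74-fold. Psmg2 had 126 and 157 FPKM in the ICM replicates, against 5.96 FPKM in control embryos. Psmg1, Psmg3 and Psmg4 had 98.0, 59.6 and 52.1 FPKM in ICM replicate 1 and 109, 97.5 and 97.6 FPKM in ICM replicate 2, against 14.1, 3.34 and 1.49 FPKM in control embryos. Psmd3, Psmd5 and Psmd9 stayed within the size rule, at -0.07, 0.31 and 0.42. Psmd5 and Psmd9 act in assembly of the base and are not stable subunits. The 2 ICM replicates differed by 2-fold or more for Psmd13, at 125 and 59.3 FPKM, and Psme2, at 13.9 and 5.98 FPKM, which is 2 of 44 members. By the same rule 2.79% of all genes were higher and 2.31% lower in replicate 1.

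The ICM libraries differ from the others in RNA selection, amplification and table, so stage and protocol cannot be told apart. The ICM libraries also held trophectoderm RNA, with all 5 markers of the list at 1 FPKM or more. Their summed level was 1742 and 1478 FPKM in the ICM replicates, against 24.5 FPKM in control embryos, led by Krt18 at 1116 and 991 FPKM. Of the 5 ICM markers, 2 were higher than in control embryos and 1 was lower, with a median difference of 0.07. Nanog had 104.5 and 133 FPKM in the ICM replicates, against 1.84 FPKM in control embryos, and Gata6 had 24.5 and 32.1 FPKM in the ICM replicates, against 2.54 FPKM in control embryos. Sox2 had 5.25 and 2.85 FPKM in the ICM replicates, against 10.1 FPKM in control embryos. Pou5f1 and Fgf4 were not called. The part of trophectoderm RNA in the result was not tested.

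**Figure D4:**
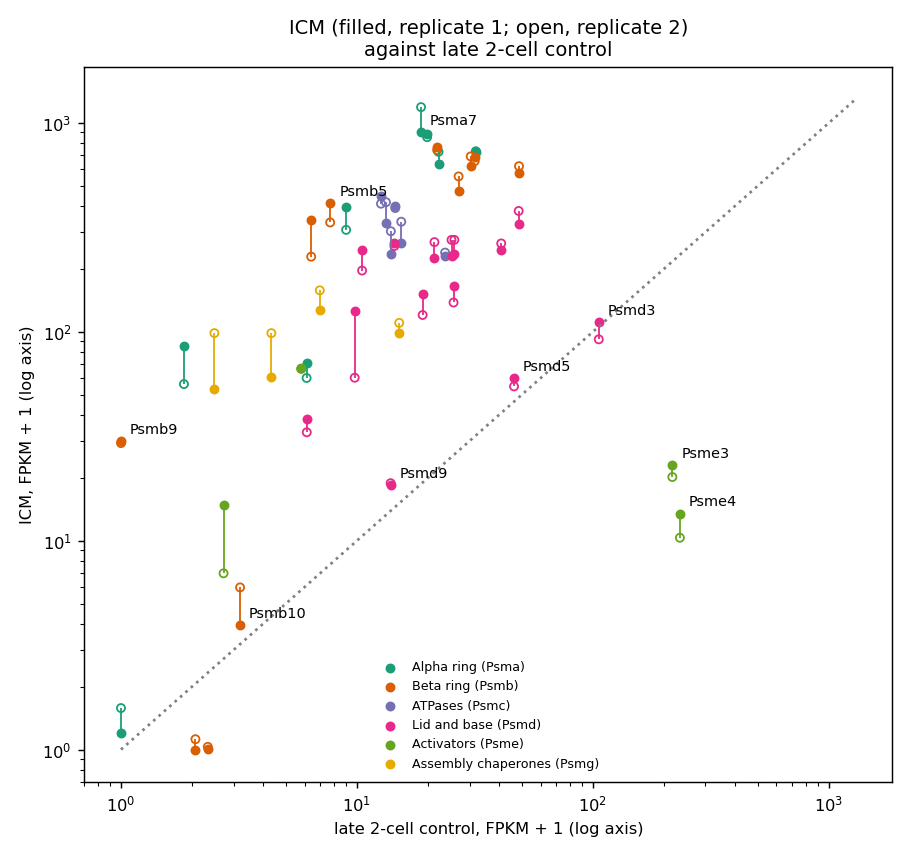
Each gene's FPKM + 1 in the ICM (vertical, log axis; filled points replicate 1, open points replicate 2) against the late 2-cell control (horizontal, log axis), with the line of equality dotted. Most genes lie above the line; Psme3, Psme4, Psmb11 and Psmb8 lie below it, and a few genes are close to it.

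The activators Psme3 and Psme4 differed from the core, most plainly in the ICM, where they were lower. As deposited, both had, as the core median did, their lowest level of the 5 total RNA libraries in early 2-cell embryos. Their fall from MII was smaller, with differences of -0.42 for Psme3 and -0.67 for Psme4. Alpha genes had a median of -2.42 there and beta genes -1.16. With the shift taken out the values were 0.14 for Psme3, -0.12 for Psme4, -1.90 for alpha genes and -0.61 for beta genes. The median of the 14 core genes was 42.3 FPKM in MII, 42.1 in PN5, 8.10 in early 2-cell, 14.2 in mTBE and 19.9 in control embryos, and 599 and 638 FPKM in the ICM replicates. Psme3 had 137 FPKM in MII, 237 in PN5, 102 in early 2-cell, 321 in mTBE and 216 in control embryos, and 22.1 and 19.2 FPKM in the ICM replicates. Psme4 had 49.9 FPKM in MII, 113 in PN5, 31.0 in early 2-cell, 283 in mTBE and 233 in control embryos, and 12.5 and 9.33 FPKM in the ICM replicates. Both ICM values of each gene lay below all 5 total RNA libraries. The ICM differences from control were -3.33 for Psme3 and -4.31 for Psme4. Ratios within a library do not depend on scaling between tables. Psme3 stood at 3.23 times the median core gene in MII, 5.63 in PN5, 12.6 in early 2-cell, 22.6 in mTBE, 10.9 in control, and 0.0369 and 0.0301 times in the ICM replicates. Psme4 stood at 1.18, 2.68 and 3.82 times in MII, PN5 and early 2-cell, 19.9 in mTBE, 11.7 in control, and 0.0208 and 0.0146 times in the ICM replicates. Together they made up 53.7% of the summed FPKM of the 47 genes in mTBE and 36.2% in control embryos, and 0.279% and 0.222% in the ICM replicates.

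**Figure D5:**
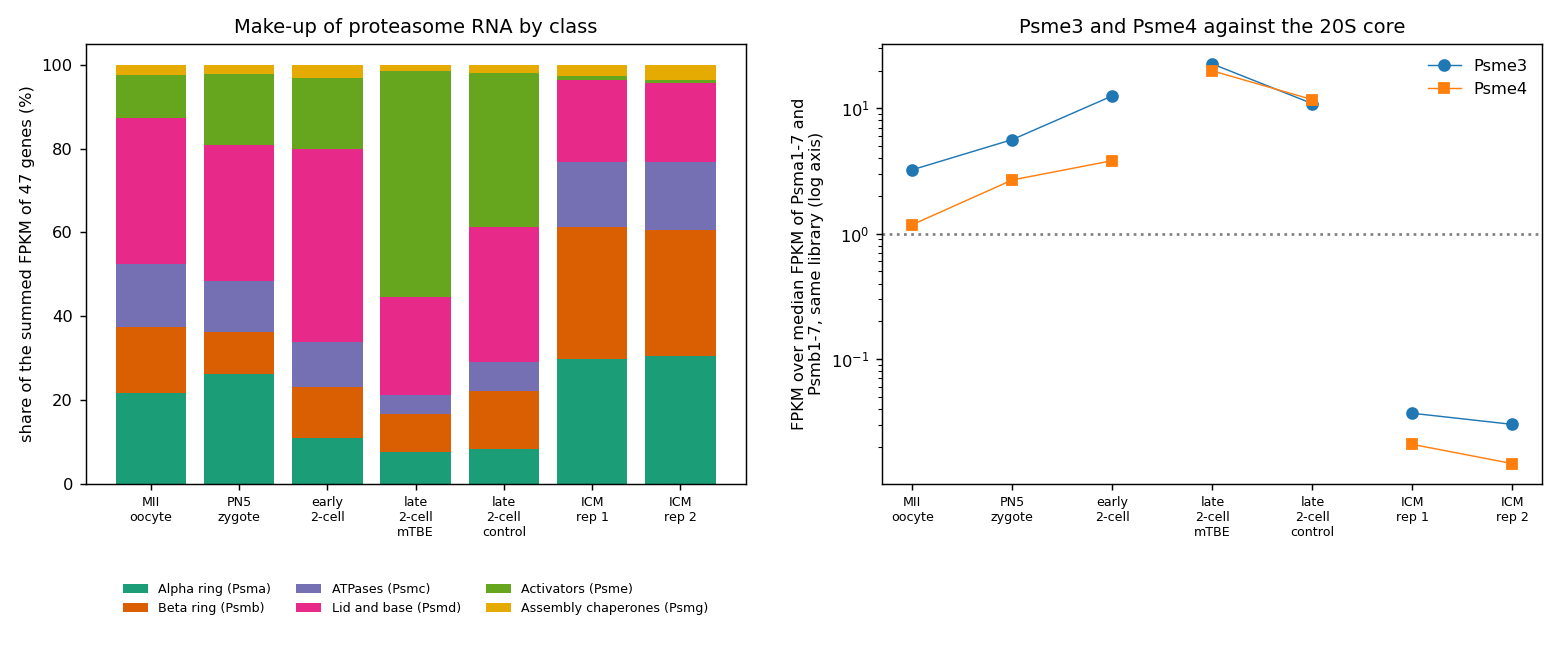
Left, share of the summed FPKM of the 47 genes held by each class in each library, in percent. Right, FPKM of Psme3 and Psme4 over the median of the 14 core genes in the same library, on a log axis with 1 dotted; both genes are above 1 in all 5 total RNA libraries and below it in the ICM.

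Psme1 and Psme2, which form the interferon-inducible activator, were low before the ICM. Psme1 was listed at 0 in MII, early 2-cell and mTBE embryos, with 0.396 FPKM in PN5 and 4.80 FPKM in control embryos. It had 65.8 and 65.5 FPKM in the ICM replicates. Psme2 had 6.64 FPKM in MII and no more than 1.72 FPKM in the zygote and 2-cell libraries. It had 13.9 and 5.98 FPKM in ICM replicates 1 and 2, so replicate 2 lay below its MII level. Of the immunoproteasome subunits, which replace catalytic subunits in immune cells, Psmb9 had 29.1 and 28.3 FPKM in the ICM replicates and was listed at 0 in MII, PN5 and control embryos, with 1.53 FPKM in early 2-cell and 1.85 FPKM in mTBE embryos. Psmb8 had at most 1.78 FPKM, in mTBE embryos. Psmb10 had 2.96 and 4.97 FPKM in the ICM replicates, against 2.20 FPKM in control embryos. The thymus subunit Psmb11 had at most 1.86 FPKM. The leukocyte marker Ptprc was under 1 FPKM in all libraries, while Cd74 had 4.86 FPKM in mTBE and 12.6 FPKM in control embryos. Of the interferon response list 1 of 5 measured genes was higher in the ICM and 3 were lower, where 25.0% and 47.8% of all genes were. The part of other cells in these low values was not tested.

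Genes tied to the proteasome but outside its naming rule were counted by the same size rule. Of a list of 28 for assembly, transcriptional control, substrate delivery and ubiquitin, 14 were lower and 0 higher in early 2-cell embryos, set against MII oocytes, where 28.8% and 3.98% of all genes were. In PN5 zygotes 7 were lower and 2 higher than in MII oocytes, where 9.23% and 8.77% of all genes were. In control late 2-cell embryos 13 were higher and 2 lower than in early 2-cell embryos, where 49.6% and 8.62% were. Against PN5 zygotes, 4 of 27 were higher and 6 lower in control embryos, where 30.5% and 17.0% were. In mTBE embryos 0 of 27 measured were lower or higher than in control embryos, where 9.99% of all genes were lower and 5.57% higher. In the ICM 13 of 28 were higher and 11 lower than in control embryos, where 25.0% and 47.8% of all genes were. Pomp, which matures the beta ring, had 504 and 636 FPKM in the ICM replicates, against 23.1 FPKM in control embryos. Nfe2l1, a transcription factor known to drive proteasome genes when the protease is impaired, had 9.25 and 6.49 FPKM in the ICM replicates, against 117 FPKM in control embryos. Ddi2, the protease that activates it, had 5.78 and 6.39 FPKM in the ICM replicates, against 70.1 FPKM in control embryos. Among the delivery factors, Rad23b had 36.1 and 27.3 FPKM in the ICM replicates, against 190.3 FPKM in control embryos, and Ubqln1 had 36.1 and 41.6 FPKM, against 193 FPKM in control embryos. The ubiquitin gene Ubb had 1372 and 2121 FPKM in the ICM replicates, against 197 FPKM in control embryos.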

How the data were processed

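RNA was measured in 7 of the 116 samples; 109 chromatin samples were not used here. Values were deposited by the authors as FPKM, 1 per symbol. Tools listed in the submitters' processing notes are TopHat2 2.1.1, Cufflinks 2.1.1 and CASAVA 1.8, and the build listed is mm9; no role is given for any. How shared reads and strand were handled is not given in the sources used here, so genes with near copies are uncertain; 4 members have a named pseudogene. The MII column bears a name that a chromatin sample also bears and was taken as MII total RNA because its table is listed with that sample. Rows that share a symbol were summed; no member row was repeated.

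Differences were computed with pandas 2.3.3 and NumPy 2.4.6 in Python 3.11.15, with a pseudocount of 1 FPKM, a filter of 1 FPKM and a call at 1. ICM values are means of log2(FPKM + 1) over 2 replicates. The scaling shift is the median of log2 ratios over genes that reach 5 FPKM in both groups. The calculation was tested on simulated data, a copied library with set changes and no noise. The changed genes lay well above the filter, so that test bears on the arithmetic alone. Read depth is unknown: among low values of the late 2-cell libraries 5 of 580 genes at most shared 1 ratio, within 0.002 log2, so no counts, intervals or floors are given. Alternatives were a pseudocount of 0.1, no filter, a filter of 5 FPKM, median scaling, rescaling to a sum of 1000000, the highest of repeated rows and leaving out each ICM replicate. The members and lists were chosen with earlier results of these data known. Named genes were Psma2, Psma7, Psme3, Psmb5 to Psmb10, all Psme and Psmg genes, the 3 largest differences per comparison in each direction at 10 FPKM or more, class extremes and the 2 highest of each pathway list; others are named in the list of their class, and marker genes beside the result they touch. Motif counts used RefSeq promoters of GRCm38.p6, which is not the authors' build, and no coordinate was converted.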

Additional observations from a re-analysis of the deposited data

How the results depend on the processing

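The count of members higher in control late 2-cell than in early 2-cell embryos was 20 as deposited, 11 with median scaling and 13 with every library rescaled to a sum of 1000000; the 2 libraries come from different tables. With median scaling, members lower in that comparison went to 10, against 4 as deposited. Of members lower in early 2-cell than MII, lid and base genes went to 5, against 8, and chaperones to 1, against 2; members higher in PN5 than MII went to 0, against 1. Ranges over all settings run were 8 to 9 members lower in PN5 than MII, 21 to 29 lower in early 2-cell than MII, 18 to 19 lower in control than PN5, 9 to 13 lower in mTBE than control and 38 higher in the ICM than control. Without either ICM replicate that last count was 38, with medians of 3.92 without replicate 1 and 3.75 without replicate 2. No difference that was called changed sign. No paired analysis was possible because the groups share only replicate number 1. With 1 library per total RNA group and unknown depth, the error of those differences cannot be given.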
